A study of Arabidopsis thaliana with 6 samples.

Results

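The *EC1* genes encode small cysteine-rich proteins that the *Arabidopsis* egg cell secretes. Their RNA was measured in whole young seeds of wild type (WT) and of a mutant for *AGL62*, which encodes a MADS-box transcription factor of the endosperm. The 5 members, *EC1.1* (AT1G76750), *EC1.2* (AT2G21740), *EC1.3* (AT2G21750), *EC1.4* (AT4G39340) and *EC1.5* (AT5G64720), were taken by locus identifier from a table of 32678 genes, and all 5 had reads in both genotypes. Plants of both genotypes were emasculated and pollinated by hand, and their seeds were collected 30 hr later. Each genotype had 3 biological replicates, which makes 6 libraries in all. The labels give the mutant as *agl62*/- and name no further allele, strain or treatment, and the methods state that the seeds came from rare homozygous plants that set few viable seeds. The deposited table gives 1 mean normalized count per genotype, so the spread between replicates is not known here and no test between the genotypes was made. *AGL62* itself had a mean of 410 in WT and 1.81 in *agl62*.

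The egg cell stores EC1 proteins in vesicles and releases them when sperm cells arrive. Released EC1 is known to act on the sperm, where the fusion protein HAP2 then moves to the surface and the gametes fuse. The members are known to act redundantly.

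The conserved part of the coding sequences is shown because it defines the family and shows how far the reads of one member can be told from those of another. The translated coding sequences were 125 to 158 residues long, and each held 6 cysteines. From the first to the last cysteine, *EC1.1* to *EC1.4* shared one spacing, with 9, 18, 0, 9 and 21 residues between successive cysteines, whereas *EC1.5* had 26 residues in place of 18. The stretches run from the first to the last cysteine codon, with the cysteine codons in capitals, and are from the RefSeq TAIR10.1 genome at chr1:28811275-28811463 (plus strand) for *EC1.1*, chr2:9282040-9282228 (minus strand) for *EC1.2*, chr2:9283421-9283609 (minus strand) for *EC1.3*, chr4:18293183-18293371 (minus strand) for *EC1.4* and chr5:25872445-25872657 (minus strand) for *EC1.5*:
EC1.1: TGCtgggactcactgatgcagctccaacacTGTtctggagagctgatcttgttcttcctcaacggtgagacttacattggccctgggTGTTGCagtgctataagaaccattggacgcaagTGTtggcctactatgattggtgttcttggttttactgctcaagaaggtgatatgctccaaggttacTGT
EC1.2: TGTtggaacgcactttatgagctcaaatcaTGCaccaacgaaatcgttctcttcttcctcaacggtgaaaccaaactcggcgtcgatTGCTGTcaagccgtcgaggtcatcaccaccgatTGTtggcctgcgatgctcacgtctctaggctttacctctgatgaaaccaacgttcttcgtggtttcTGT
EC1.3: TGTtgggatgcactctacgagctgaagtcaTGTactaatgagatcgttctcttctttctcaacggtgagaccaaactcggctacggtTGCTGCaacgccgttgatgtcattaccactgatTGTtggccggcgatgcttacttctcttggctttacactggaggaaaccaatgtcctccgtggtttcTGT
EC1.4: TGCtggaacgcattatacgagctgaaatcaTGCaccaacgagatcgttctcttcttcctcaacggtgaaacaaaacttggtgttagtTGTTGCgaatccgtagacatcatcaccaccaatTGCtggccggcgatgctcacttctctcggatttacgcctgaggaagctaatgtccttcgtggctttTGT
EC1.5: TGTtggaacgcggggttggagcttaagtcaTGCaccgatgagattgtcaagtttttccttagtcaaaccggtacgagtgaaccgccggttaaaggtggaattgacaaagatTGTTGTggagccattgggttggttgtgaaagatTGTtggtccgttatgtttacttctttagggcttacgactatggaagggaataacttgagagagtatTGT

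The proteins of *EC1.2* and *EC1.3* were identical at 83.2% of aligned positions, and those of *EC1.4* at 74.2% and 75.0% with these. *EC1.1* shared 26.1% to 36.4% of positions with the other members, and *EC1.5* 26.1% to 35.2%. Between coding sequences the longest identical run was 29 bases, between *EC1.2* and *EC1.4*, which is well under the read length of 100 bases. When each gene was cut into pieces of 50 bases, *EC1.2* alone had a piece with an exact copy elsewhere in the genome. The copied stretch was 108 bases long, of which 93 lie in *EC1.2* at its 3′ end, and the copy overlaps AT2G21895, annotated as a transcribed pseudogene. Of the 303 windows of 100 bases within *EC1.2*, 0 had an exact copy elsewhere.

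The upstream sequences of *EC1.1*, *EC1.3*, *EC1.4* and *EC1.5* are shown because the first 3 of these share a short string there. Each run covers the 200 bases before the annotated transcript start, except that of *EC1.4*, whose annotation begins at its start codon and whose run spans the bases from 200 to 51 before it. The capitals mark CCACTAA and TATAAA, each searched on both strands, and no match of one overlapped a match of the other. The runs are from the RefSeq TAIR10.1 genome at chr1:28810840-28811039 (plus strand) for *EC1.1*, chr2:9283775-9283974 (minus strand) for *EC1.3*, chr4:18293563-18293712 (minus strand) for *EC1.4* and chr5:25872834-25873033 (minus strand) for *EC1.5*:
EC1.1: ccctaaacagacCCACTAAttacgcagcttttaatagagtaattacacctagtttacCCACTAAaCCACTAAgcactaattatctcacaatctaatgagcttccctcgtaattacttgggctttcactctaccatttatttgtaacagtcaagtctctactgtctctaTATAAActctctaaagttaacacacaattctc
EC1.3: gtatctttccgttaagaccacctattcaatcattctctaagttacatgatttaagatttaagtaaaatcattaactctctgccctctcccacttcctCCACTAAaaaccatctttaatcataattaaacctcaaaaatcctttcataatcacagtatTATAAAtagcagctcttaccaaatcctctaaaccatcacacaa
EC1.4: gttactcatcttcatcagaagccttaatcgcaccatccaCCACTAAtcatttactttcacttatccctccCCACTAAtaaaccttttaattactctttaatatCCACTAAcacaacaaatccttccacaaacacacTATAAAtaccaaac
EC1.5: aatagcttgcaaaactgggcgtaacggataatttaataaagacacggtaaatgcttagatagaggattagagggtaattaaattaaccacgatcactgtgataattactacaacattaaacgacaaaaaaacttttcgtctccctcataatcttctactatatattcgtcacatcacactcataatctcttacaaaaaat

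CCACTAA was found 3 times before *EC1.1*, 1 time before *EC1.3* and 3 times before *EC1.4*, and it was not found before *EC1.5*. Of the 27443 protein-coding genes, 3.1% held it in the same 200 bases and 0.0802% held it 2 or more times. TATAAA was found once before each of the same 3 members and in 41.0% of all genes. CCACTAA was picked after the windows upstream of the *EC1* genes had been read, and *EC1.3* and *EC1.4* are close copies of each other, so the count is a description with no test.

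Of the 5 genes, *EC1.4* stood well above the others in both genotypes. Its mean normalized count was 169 in WT and 175 in *agl62*, and it made up 88.9% of the summed *EC1* level in WT and 75.8% in *agl62*. The other 4 genes were near the lower end of what these libraries can measure, with WT means from 1.46 to 10.7. They were the members with the larger ratios, and their summed mean was 21.0 in WT and 55.8 in *agl62*, a 2.65-fold difference, against 1.21-fold for all 5. *EC1.4* was set apart by these same values, so the larger fold is a description only. Of the other 4 genes, *EC1.1* had the largest mean in *agl62*, at 26.8.

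The low means could be given a counting error because the depth of each library can be read from the smallest values of the table. All 12 distinct WT means under 1 were whole-number sums of 0.242, 0.326 and 0.731, and all 19 distinct *agl62* means under 1 were sums of 0.256, 0.291 and 0.315, with a rounding tolerance of 0.0006 for each step and for the mean itself. Each step is the value of 1 count in 1 library, and they correspond to relative depths from 0.456 to 1.377 in WT and from 1.058 to 1.302 in *agl62*. The 95% intervals given below follow from these depths. They cover counting error only and not the spread between plants.

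*EC1.1* had a mean of 6.99 in WT (95% counting interval 4.01 to 11.3) and 26.8 in *agl62* (21.6 to 32.8). The ratio was 3.83, with a counting interval of 2.25 to 6.96, so the difference was larger than the counting error. The WT mean can be made of 12 to 25 counts over the 3 libraries and the *agl62* mean of 85 to 105 counts. *EC1.1* occupies bases 28811040 to 28811721 of chromosome 1, plus strand, and has a single exon with an untranslated stretch at each end.

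*EC1.3* had means of 1.87 in WT (0.543 to 4.63) and 8.78 in *agl62* (5.95 to 12.5). The ratio of 4.70 had a counting interval of 1.71 to 17.2, which holds the whole interval of *EC1.1*. Its WT mean stands for 5 to 7 counts in all 3 libraries together, against 28 to 34 counts in *agl62*. The gene has a single exon, bases 9283367 to 9283774 of chromosome 2, minus strand.

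*EC1.2*, its tandem neighbour, lies 979 bases further along in the direction of transcription, from 9281986 to 9282387. Its means were 1.46 in WT (0.34 to 4.04) and 2.77 in *agl62* (1.31 to 5.15), which stand for 2 to 5 and 9 to 10 counts. The ratio of 1.90 had a counting interval of 0.507 to 9.63, so neither a difference nor its direction was detectable at this depth. The intervals of *EC1.2* and *EC1.3* overlap widely, and the ratios of the tandem pair could not be told apart.

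*EC1.5*, the member with the longer loop between cysteines, had means of 10.7 in WT (6.91 to 15.8) and 17.4 in *agl62* (13.3 to 22.4). Its ratio of 1.63 had a counting interval of 1.00 to 2.71, which touches no difference at its lower end. It occupies bases 25872305 to 25872833 of chromosome 5, minus strand, and the RefSeq annotation of AT5G64710 on the other strand ends 35 bases away. AT5G64710 had means of 685 in WT and 432 in *agl62*, and its part in the level of *EC1.5* was not tested.

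*EC1.4* was the only member whose interval allowed no large change. Its ratio was 1.04, with a counting interval of 0.91 to 1.18, on means of 169 (153 to 187) and 175 (161 to 189). By counting error alone, its upper bound lies below the lower bounds of *EC1.1* and *EC1.3*. The gene occupies bases 18293129 to 18293512 of chromosome 4, minus strand, and its single exon is annotated as coding throughout.

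**Figure D1:**
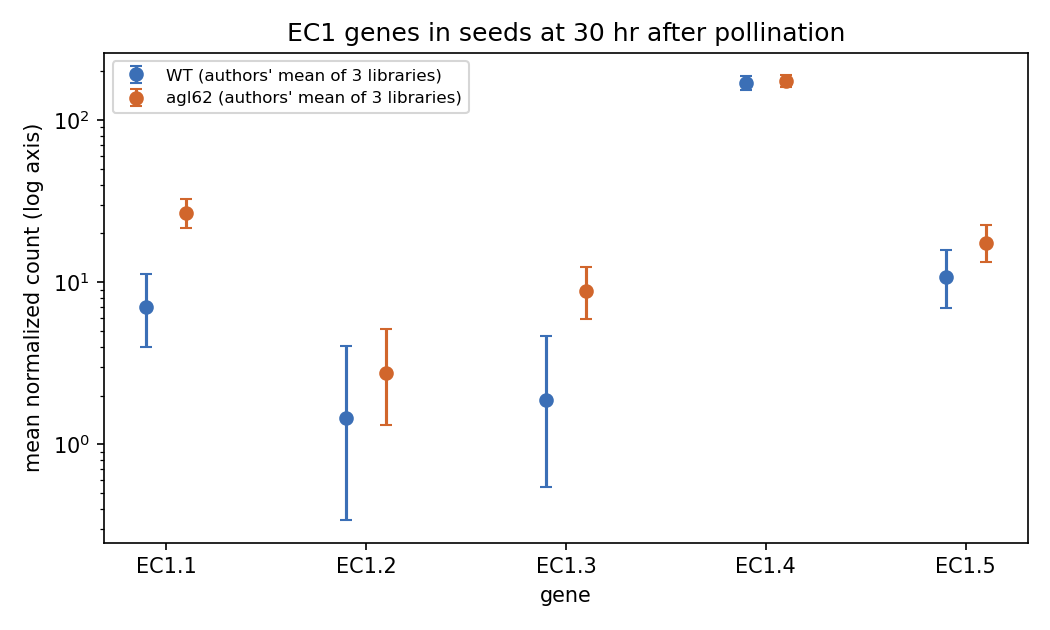
The 5 EC1 genes on the x axis and the authors' mean normalized count on a log y axis, for WT and *agl62*, with 95% counting intervals as bars. *EC1.4* lies at 169 and 175, and the other genes lie between 1.46 and 26.8, with the intervals of the genotypes apart for *EC1.1* and *EC1.3*.

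The levels of the genes were also compared per kilobase of annotated transcript. *EC1.4* had 440 normalized counts per kilobase in WT and 456 in *agl62*. In WT it was followed by *EC1.5* with 20.2, *EC1.1* with 10.2, *EC1.3* with 4.58 and *EC1.2* with 3.63. In *agl62*, *EC1.1* with 39.3 and *EC1.5* with 32.9 changed places, while *EC1.3* with 21.5 and *EC1.2* with 6.89 followed. Below *EC1.4*, the counting intervals of neighbours in this order overlapped in both genotypes, those of *EC1.1* and *EC1.5* included, except that *EC1.2* lay below *EC1.3* in *agl62*. Among the 24985 genes with reads, 37.5% lay below *EC1.4* in WT and 12.0% to 21.2% below the other 4.

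For a comparison with the rest of the table, a gene counted as past 2-fold when log2(*agl62* mean + 1) minus log2(WT mean + 1) was at least 1 or at most -1 and its higher mean was at least 10. Of 20255 such genes, 3.00% were past 2-fold higher in *agl62* and 3.46% lower, and the median log2 difference was 0.01. The share depends on the level, and among the 1588 genes whose higher mean was from 10 to 30, 16.6% were past 2-fold higher. Of the 5 members, 3 reached a mean of 10, and *EC1.1* was the one past 2-fold, with a log2 difference of 1.80. It reached the minimum only through *agl62*, so its count says little. Without the minimum *EC1.3* was also past 2-fold, at 1.77, against 5.50% of all genes with reads past 2-fold higher. Of those 24985 genes, 20255 reached a mean of 10, which *EC1.3* did not, so this share is not matched to its level. At a threshold of 1.5-fold with the minimum kept, *EC1.1* and *EC1.5* were past it, against 6.98% of genes. That share covers all means from 10 up and is not matched to the low level of these genes either. The log2 difference was 0.65 for *EC1.5*, 0.62 for *EC1.2* and 0.05 for *EC1.4*, and the median over the 5 genes was 0.65. In bulk seed RNA, more cells that express a gene and more of its RNA per cell cannot be told apart.

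The surroundings of the members bear on how their counts can be read, because the strand of the counting is not given in the sources used here. *EC1.2* shares 193 bases, or 48.0% of its length, with the 3′ part of *CAD2* (AT2G21730), a cinnamyl alcohol dehydrogenase homologue on the other strand. *CAD2* had a mean of 49.3 in WT and 0.256 in *agl62*, while no direction was detectable for *EC1.2*. The part of *CAD2* in the value of *EC1.2* was not tested. *EC1.1* shares 37 bases, or 5.43%, with the thioredoxin gene *TY1* (AT1G76760), whose means were 468 and 467, and 320 bases with AT1G09657, an annotated lncRNA on the other strand that is not among the genes analysed here. *EC1.4* overlaps no gene, but *CAD9* (AT4G39330), with means of 42800 and 43800, ends 110 bases from it on the other strand. The ratio of *CAD9* was 1.02, close to the 1.04 of *EC1.4*, and its part in the level of *EC1.4* was not tested. *CAD9*, like *CESA9* and *CESA2* below, was named after its value was seen.

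The regions of *EC1.2* with *EC1.3* and of *EC1.4* have the same layout. In each, a *CAD* gene lies downstream of the *EC1* genes on the other strand, and a tRNA gene or a pseudogene lies upstream, followed by a cellulose synthase gene. *CESA9* (AT2G21770) had means of 423 in WT and 576 in *agl62*, and *CESA2* (AT4G39350) of 28800 and 25700. AT2G21727, which is an annotated relative of the *EC1* genes 2905 bases beyond *EC1.2*, had means of 1.78 and 22.0.

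**Figure D2:**
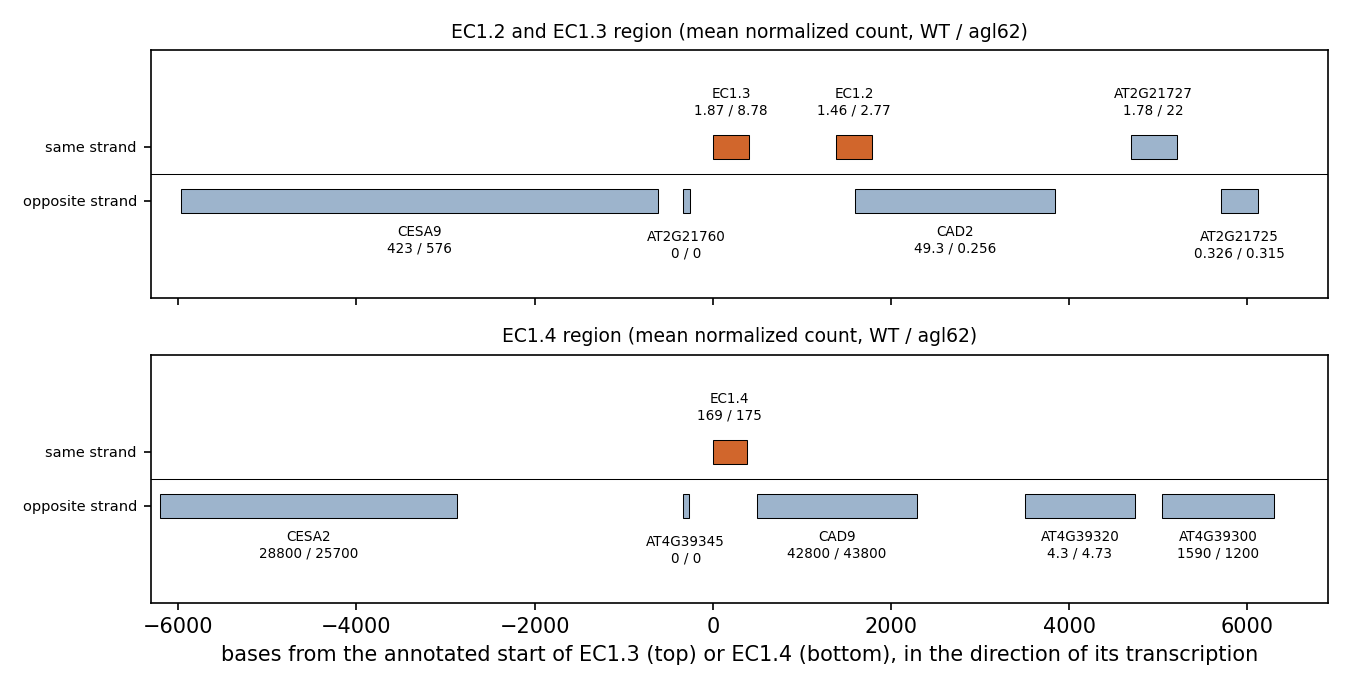
Genes around *EC1.2* and *EC1.3* (top) and around *EC1.4* (bottom), drawn to scale by their distance in bases from the start of *EC1.3* or *EC1.4*, with same-strand genes above and opposite-strand genes below the line. The numbers are the means in WT and *agl62*, *CESA2* and AT4G39300 run past the drawn span, and *CAD2* overlaps the end of *EC1.2* by 193 bases.

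Other egg cell genes were looked at from a list of 8, of which 5 reached a mean of 10 and 2 were past 2-fold, both higher in *agl62*. Both lay in the range of means from 10 to 30, in which 16.6% of all genes were past 2-fold higher. These were *ECS1* (AT1G31450) and *ECS2* (AT2G35615), which encode aspartic proteases that the egg cell secretes after fertilization and that degrade the pollen tube attractant LURE1. *ECS1* had means of 3.58 in WT and 22.6 in *agl62*, a ratio of 6.31 with a counting interval of 3.08 to 14.9. *ECS2* had means of 4.15 and 16.4, a ratio of 3.95 (1.98 to 8.83). Both reached a mean of 10 only through *agl62*. *RKD2* (AT1G74480), an RWP-RK transcription factor of the egg cell, had means of 1.3 and 5.14, below the minimum. It was named after its value was seen. *RKD1* (AT1G18790) was close to a single count in either genotype, at 0.326 and 0.291. Of the other *RKD* genes on the list, *RKD3* (AT5G66990) had means of 11.5 and 11.9, and *RKD5* (AT4G35590) of 10.3 and 10.1. *RKD4* (AT5G53040) had means of 3.82 and 5.73, below the minimum. *SUF4* (AT1G30970), a regulator of *EC1* transcription that many tissues express, had means of 3750 and 3740. The median log2 difference of the 8 genes was 0.26, against 0.02 over all genes with reads.

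*HAP2*, which encodes the fusion protein of the sperm, was on a list of 7 sperm genes, of which none was past 2-fold among the 3 that reached a mean of 10. *HAP2* (AT4G11720), named after its value was seen, had means of 23.1 in WT and 35.8 in *agl62*, a ratio of 1.55 (1.12 to 2.18). The median log2 difference of the 6 sperm genes with reads was 0.53. *GEX1* (AT5G55490) had means of 118 and 96.7, and *DMP8* (AT1G09157), whose protein takes part in gamete fusion, of 30.3 and 45.7. *GEX2*, which encodes a sperm adhesion protein, was listed at 0 in both genotypes. None of the 5 pollen tube genes was past 2-fold either, and their median was -0.19. The highest of these were *ANX1* (AT3G04690), with means of 651 and 711, and *VGD1* (AT2G47040), with 553 and 486.

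The synergid cells, which flank the egg cell and attract the pollen tube, were represented by 10 genes. All 10 had a higher mean in *agl62* than in WT, against 52.6% of all genes with reads. For most of the 10 the counting interval of the ratio reached 1 or below, and for *FER*, which many tissues express, the means were 29000 and 29400. Of the 6 that reached a mean of 10, 2 were past 2-fold higher, against 3.00% of all such genes and 16.6% of those with means from 10 to 30, and the median log2 difference was 0.63. *LURE1.3* (AT5G43513), a pollen tube attractant, had means of 1.94 and 13.1, a ratio of 6.75 (2.58 to 23.6), and reached a mean of 10 only through *agl62*. *DD31* (AT1G47470) had means of 10.6 and 35.0, a ratio of 3.30 (2.13 to 5.33), and is also among the relatives described below. *MYB98*, the transcription factor that defines these cells, stood at 1.87 and 3.68, with a counting interval of its ratio from 0.623 to 7.82. Of the 2 genes taken as markers of the antipodal cells, *DD13* (AT3G59260) had means of 3.42 and 10.4, a ratio of 3.04 (1.39 to 7.62). It reached a mean of 10 only through *agl62*. *DD1* (AT1G36340), named after its value was seen, had means of 1.06 and 9.23. The median log2 difference of this pair was 1.84, against 0.02 over all genes with reads, and it fell to 0.7 with a pseudocount of 10.

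Genes of the central cell, from which the endosperm derives, moved in both directions. Of 13 genes, 9 reached a mean of 10. Past 2-fold, 6 of these were lower in *agl62* and 1 higher, against 3.46% and 3.00% of all such genes. The median log2 difference was -0.31 over the 13. The glycosyl hydrolase gene *DD65* (AT3G10890) had means of 242 in WT and 18.2 in *agl62*, and *DD36* (AT3G24510), a defensin-like gene, of 2740 and 910. The cysteine-rich protein gene *DD22* (AT5G38330) had means of 156 and 28.8, and *DD7* (AT2G20595) of 99.8 and 26.1. *ESF1.2* (AT1G10745), which encodes a peptide that acts on the suspensor of the embryo, had means of 234 and 35.7, and *FWA* (AT4G25530), an imprinted homeobox gene, of 720 and 358. The gene past 2-fold higher was *ESF1.3* (AT1G10717), with means of 3.49 and 21.7, which reached a mean of 10 only through *agl62*. In all, 5 of the 13 genes had a higher mean in *agl62*, among them *FIS2*, an imprinted Polycomb gene, with means of 83.9 and 143 (ratio 1.70, 1.44 to 2.02), and *DD41*, with 1.29 and 6.15 (ratio 4.77, 1.42 to 25.1). All 4 endosperm genes that reached a mean of 10 were lower in *agl62* past 2-fold, against 3.46% of all such genes. Among them was *AGL62*, the mutated gene itself, so its fall is no result about the list. The others were *PHE1* (AT1G65330) with means of 302 and 98.6, *AGL36* (AT5G26650) with 33.4 and 11.1, and *MINI3* (AT1G55600) with 149 and 7.46. The median over the 5 endosperm genes, *AGL62* included, was -1.61.

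The early embryo, into which the fertilized egg develops, showed no common direction. Of 9 zygote and embryo genes, 8 reached a mean of 10. Of these, 1 was past 2-fold higher and 1 lower, against 3.00% and 3.46% of all such genes. The median log2 difference was 0.01. The homeobox gene *HDG11* (AT1G73360) had means of 29.5 and 70.1. *SSP* (AT2G17090), whose transcript is known to come from the sperm, had means of 26.3 and 3.54. The homeobox gene *WOX2*, a marker of the zygote and the apical daughter cell, had means of 20.0 and 16.0, with a counting interval of its ratio from 0.532 to 1.21. Of 5 seed coat genes none was past 2-fold, and their median log2 difference was 0.01. *BAN* (AT1G61720) had means of 96900 and 97300 and *STK* (AT4G09960) of 47500 and 38400. The paper reports that the *BAN* promoter is already active in the integument of unfertilized ovules. These levels therefore do not check the tissue label.

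**Figure D3:**
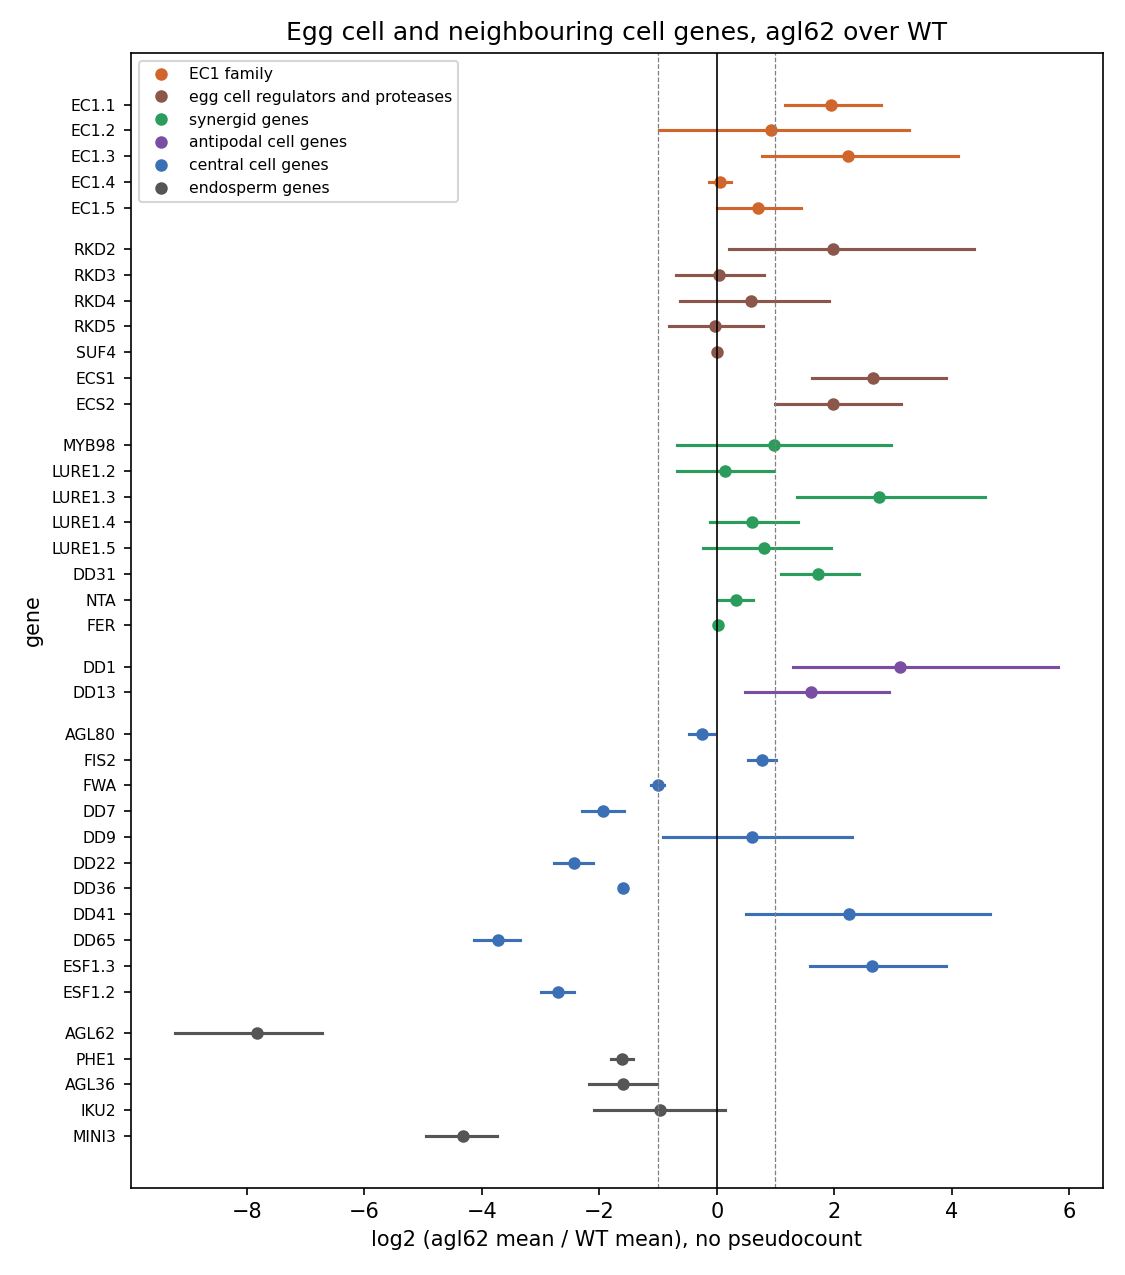
Each point is a gene's log2 ratio of means, *agl62* to WT, without pseudocount, for genes of the lists with both means above 0 and the higher mean at least 2, and each bar is its 95% counting interval; dashed lines mark 2-fold. *EC1.1*, *EC1.3*, *ECS1*, *ECS2*, *LURE1.3*, *DD31*, *DD1* and *DD13* lie to the right of 0 with their whole intervals. So do *RKD2*, the synergid gene *NTA* and the central cell genes *FIS2*, *DD41* and *ESF1.3*. The interval of *EC1.2* spans 0 and that of *EC1.5* begins at about 0. *EC1.4*, *SUF4* and some other genes of the egg cell list lie close to 0, while most central cell and endosperm genes lie to the left.

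Relatives of the *EC1* genes were taken by their RefSeq annotation as ECA1 gametogenesis, egg cell-secreted, DUF1278 or prolamin-like proteins, which are small secreted cysteine-rich proteins. There were 97 such genes besides the 5 members, of which 60 had reads and 37 had a mean of at least 10. Of these 37, 21 were past 2-fold higher in *agl62*, 13 were past 2-fold lower and 3 were neither, against 6.46% of all such genes past 2-fold in either direction and 30.2% of those with a higher mean from 10 to 30. The median log2 difference of the 60 genes was 1.07. As 18 of the 21 had a WT mean under 10 and 7 of the 13 an *agl62* mean under 10, many passed the minimum only through the genotype in which they were higher. The summed mean of all relatives was 10400 in WT and 1530 in *agl62*. Among the relatives, all 23 with reads that are annotated with the domain of unknown function DUF784 had a higher mean in *agl62*. This compares with 52.6% of all genes with reads. *DD41*, listed above with the central cell genes, is also annotated with DUF784 but was not among the relatives taken. The summed mean of the DUF784 relatives was 130 and 451. That of the genes annotated with DUF1278 or as egg cell-secreted was 7040 and 689, and that of the other relatives 3200 and 387. A single gene, AT5G51105, with means of 7000 and 621, made up most of the sum for DUF1278 or egg cell-secreted. Of the 10 genes of that group with reads, 6 had a higher mean in *agl62* and 4 a lower one. Their median log2 difference was 0.36. The division by annotation was made after the values were seen.

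The largest WT means, not divided by length, among the relatives belonged to genes that were lower in *agl62*. AT5G51105, which carries the DUF1278 annotation of the *EC1* genes themselves, had means of 7000 in WT and 621 in *agl62*, a ratio of 0.0887 with a counting interval of 0.0848 to 0.0928. AT3G01323 had means of 1000 and 125, and AT3G27425 of 625 and 3.09. AT3G01323 belongs to a row of 8 relatives on chromosome 3, of which 7 were past 2-fold lower and 1 higher, with summed means of 2080 and 306. Among all genes with a mean of at least 10, 3.46% were past 2-fold lower and 3.00% higher. AT2G22155 and AT2G22145 were listed at 0 in *agl62*, with WT means of 291 and 81.6.

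The relatives with the largest log2 difference towards *agl62* had WT means under 1. AT4G35165, annotated as an egg cell-secreted-like protein with DUF1278, had means of 0.81 in WT and 19.8 in *agl62*. The DUF784 genes AT5G35405 and AT2G04037 had means of 0.242 and 12.8 and of 0.326 and 13.5. The counting interval of the ratio began at 6.28 for AT4G35165, at 5.89 for AT5G35405 and at 5.79 for AT2G04037. The upper ends are set by so few WT counts that they carry no information. The relatives named here were picked for their large differences, and the lower ends make no allowance for that choice. Each of them reached the minimum mean only through *agl62*.

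**Figure D4:**
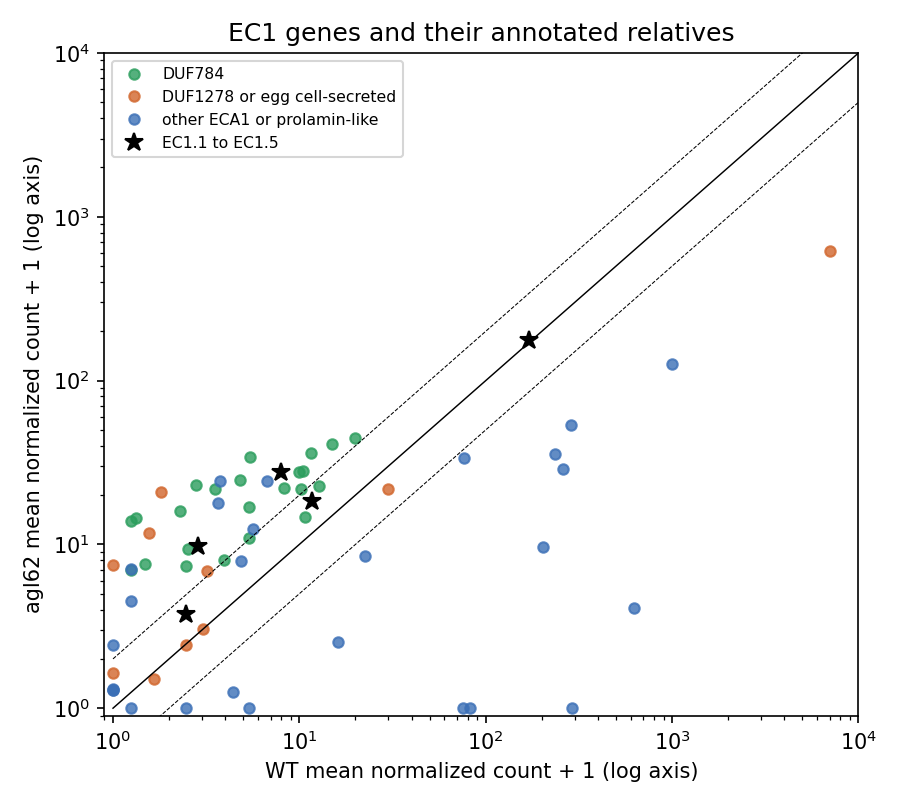
Mean normalized count + 1 in WT (x) and *agl62* (y), both on log axes, for the 60 annotated relatives with reads and, as stars, the 5 EC1 genes; the solid line marks equal values and the dashed lines 2-fold. The DUF784 genes lie above the solid line, AT5G51105 at 7000 and 621 lies far below it, and *EC1.4* lies on it.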

How the data were processed

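RNA of WT and *agl62* seeds was sequenced as paired-end reads of 100 bases, from 3 biological replicates of each. The authors aligned the reads to TAIR10 with TopHat, kept those that mapped uniquely and used DESeq; versions, counting tool, strand setting and annotation are not given in the sources used here. The deposited signal columns hold the authors' mean of size-factor normalized counts over the libraries of a genotype, with 3 digits. The count model planned before the form of the table was known could not be fitted to means. The other deposited columns hold the authors' own comparison, as a fold ratio, its log2, and a p-value with its adjusted form, and none of these was used.

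Computed here were the ratio of the means, the log2 difference with a pseudocount of 1, and the counts past 2-fold among genes whose higher mean was 10 or more. Counting intervals (95%) used the library depths read from the means under 1, as exact Poisson or Clopper-Pearson limits on the effective number of counts, which came to 2.31 per unit of mean in WT and 3.48 in *agl62*. They assume Poisson counts at equal rates in the 3 libraries. The depth and interval steps were tested on simulated data.

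Coordinates and sequences are from RefSeq TAIR10.1, joined by locus identifier, which matched 31912 of 32678 identifiers and all 5 members. Proteins were translated from the genome and aligned end to end with BLOSUM62 (gap penalties 10 and 0.5), and identity is over all aligned columns. The sequence upstream of 1 member is not reported here. The members and lists were chosen with earlier results of these data known. The genes named are the 5 members, the overlapping genes, in each list those past 2-fold or else the 2 with the highest WT mean, and among the relatives the 3 highest in WT and the 3 largest differences in each direction. *RKD1* to *RKD5*, *SUF4*, *HAP2*, *GEX2*, *MYB98*, *FER* and *NTA* lie outside this rule. So do *DD1*, *FIS2*, *DD41*, *WOX2* and the neighbours that overlap no member. All of these were named after their values were seen. Of the relatives found by their letters, 3 unrelated genes (*ECA1*, *RECA1* and *AGY1*) were removed. Python 3.11.15, numpy 2.4.6, scipy 1.17.1, pandas 2.3.3, Biopython 1.88 and matplotlib 3.10.9 were used.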

Additional observations from a re-analysis of the deposited data

How the results depend on the processing

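No paired analysis was possible because no value of a single replicate is in the table, which has 1 mean per genotype. For the same reason, leaving out a replicate, edgeR and DESeq2 were not run. The same pseudocount added to both means cannot change the direction of a difference, so the pseudocounts bear on its size alone. Scaling the columns to equal totals took *EC1.4* from 0.05 to 0.1 and the median over the 5 from 0.65 to 0.7. Scaling to a median ratio of 1 left both as they were. A pseudocount of 10 took *EC1.1* from 1.80 to 1.12 and *EC1.3* from 1.77 to 0.66, since it shrinks the differences of low genes. Both values are below the lower end of the counting intervals (1.17 and 0.77). Those intervals belong to the ratios without a pseudocount, which are not the same measure. The median over the 5 was 0.65, and it was 0.40 with a pseudocount of 10 and 0.92 with none. With a pseudocount of 10 the median became 0.11 for the egg cell list, 0.14 for sperm, 0.24 for synergid, 0.70 for antipodal and 0.40 for the relatives, and those of the other lists moved by no more than 0.1. The number of *EC1* genes past the threshold and higher in *agl62* was 1, and 2 at a threshold of 1.5-fold or without the minimum mean. Over all genes, 607 were past 2-fold higher and 701 lower. These counts became 1375 and 1154 without the minimum mean, 169 and 300 with a minimum of 100, 1414 and 1171 at 1.5-fold, and 263 and 217 for means from 10 to 30, a range chosen after seeing the data. With a pseudocount of 10 they were 361 and 554. Depth limits *EC1.2* and *EC1.3* most, and in the WT means a library with a relative depth of 0.456 has the same weight as the others.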

Other observations

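The genes most like *EC1.4* in level, by the distance between log2(mean + 1) values over the 2 genotype means, were *ARR9* (AT3G57040) with means of 170 and 174, *ATMPK13* (AT1G07880) with 167 and 175 and AT3G25590 with 167 and 176. With 2 means, this likeness says only that their levels were close.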
